A study of Homo sapiens with 6 samples.

Results

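The genes described here encode transgelins, tropomyosins and other proteins that bind or move actin filaments. Of 10 symbols chosen by name (TAGLN, TAGLN2, CNN2, TPM1, TPM2, TPM3, TPM4, CALD1, VCL and MYL9), 8 were found among the 16000 genes of the deposited table. TPM2 and MYL9 were not found there, and their expression was not analysed here. The samples came from LNCaP, an established androgen-sensitive line of human prostate carcinoma cells. ALDEFLUOR, which turns fluorescent inside cells with aldehyde dehydrogenase activity, was used to sort the brightest 10% (ALDH high) and the dimmest 10% (ALDH low). Each group had 3 samples, and both were kept in RPMI-1640 with 10% fetal bovine serum, with no further agent named. All samples thus come from the same line, and the labels do not say whether they stem from different sorts. Nor do they say how long the sorted cells were cultured before RNA was taken.

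Actin filaments are built from globular actin, and the proteins that coat them decide how stable they are and which motors can use them. Tropomyosins lie along the filament as coiled-coil dimers, caldesmon and calponins bind beside them and restrain myosin, and transgelins are small calponin relatives that bundle filaments. Vinculin ties filaments to adhesion sites. Many of these genes are targets of serum response factor (SRF), which works with the coactivators MRTFA and MRTFB. TAGLN is a classical marker of smooth muscle and of mesenchymal-like cells, whereas TAGLN2, TPM3 and TPM4 are widely expressed in epithelial cells.

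TAGLN was picked because of its low unadjusted p between the groups, so its group difference is described and not tested. The limma p that this refers to was 0.00979, rank 11 of the 16000 genes. In the authors' deposited table the p of TAGLN was 0.00567, rank 8. The other genes were taken by family.

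The 6 libraries held 23817310 to 30617873 whole reads, recovered from the normalized values. They did not sort by label. Across the 11506 genes averaging 100 or more normalized reads, ALDH low 2 had r = 0.996 with ALDH high 1 and 0.994 with ALDH high 3, against 0.968 with ALDH low 1 and 0.965 with ALDH low 3. ALDH high 2 had its highest r with ALDH low 1 (0.980). These r describe the libraries across genes, which are not independent replicates, and the differences of the 8 genes are also given without ALDH high 2 and ALDH low 2. These samples were left out for their likeness to the other group, which by itself widens the gap between those that remain, so such values are a description and lend no support. Mitochondrial transcripts took 4.87%, 2.88% and 4.88% of reads in the ALDH high samples 1, 2 and 3, against 2.003%, 4.52% and 2.98% in the ALDH low samples 1, 2 and 3. Of 15 luminal prostate marker symbols 14 were in the table. The other, ACP3, is a newer symbol of ACPP, which was found. KLK3, which encodes prostate-specific antigen, had 84410 ± 3629 normalized reads in the ALDH high samples, against 87807 ± 12287 in the ALDH low samples (SD, n = 3 each). KLK2, a related kallikrein gene, and HOXB13, a prostate homeobox gene, had log2 differences of 0.14 and −0.13 with intervals that include 0.

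None of the 8 genes passed an adjusted p of 0.05 in limma, where 0 of the 16000 genes (0%) did. The count was 0 as well with edgeR and with DESeq2 on whole reads. Unadjusted p-values under 0.05 were found for 338 genes by limma (2.11%), 357 by edgeR (2.23%) and 355 by DESeq2 (2.22%), and TAGLN alone of the 8 was among those of limma. Without both samples numbered 2, limma called 107 genes (0.669%) and 0 of the 8 or of the listed genes. The log2 differences of CNN2, CALD1 and VCL were then 0.22, −0.24 and 0.14, and those of TPM1, TPM3 and TPM4 −0.07, 0.04 and 0.01. Apart from TAGLN, every 95% interval included 0. For these 7 genes the separate intervals of the ratio of ALDH high to ALDH low ran from 0.724 (CALD1) to 1.61 (VCL). They are not a joint bound and reflect just the variation among these 6 samples. In bulk RNA of this kind, a change in the number of cells that carry a transcript and a change in its amount per cell cannot be told apart.

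**Figure D1:**
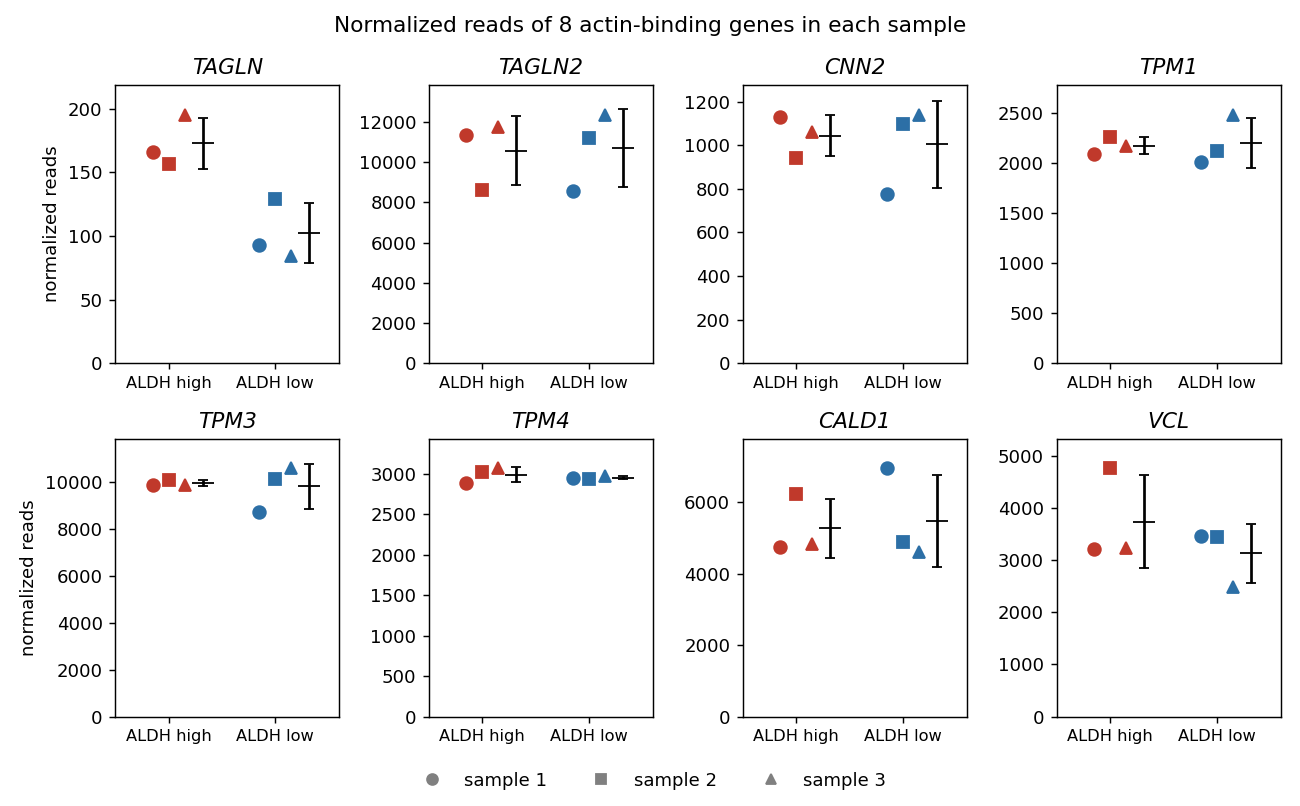
Normalized reads (vertical axis, from 0) of the 8 genes in each sample, ALDH high left and ALDH low right. Circles, squares and triangles are samples 1, 2 and 3, and black marks show the mean and SD of 3 samples. TAGLN is the gene whose groups do not overlap, at 157 to 195 in ALDH high and 84.6 to 129 in ALDH low, and TPM4 is almost level throughout.

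TAGLN (chromosome 11, 117199321 to 117204782, plus strand, GRCh38) had 167, 157 and 195 normalized reads in the ALDH high samples 1, 2 and 3, against 92.7, 129 and 84.6 in the ALDH low samples 1, 2 and 3. All ALDH high samples lay above all ALDH low samples. Over all genes, 588 were higher in ALDH high with no overlap (3.68%) and 531 lower (3.32%), and since TAGLN was chosen in this contrast nothing is read from its place among them.

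The TAGLN mean was 173 ± 20.1 in the ALDH high samples, against 102 ± 23.6 in the ALDH low samples (SD, n = 3 each), which is 0.77 on the log2 scale (95% interval 0.23 to 1.32). The difference ran from 0.65 without ALDH low 3 to 0.95 without ALDH low 2, and was 1.02 without both samples numbered 2. It rests on few reads, 159, 172 and 171 in the ALDH high samples, against 107, 132 and 79 in the ALDH low samples. The nearest samples were ALDH high 2, with a 95% Poisson interval of 134 to 182 normalized reads, and ALDH low 2, with 108 to 153, and these intervals overlap. They cover counting error only. The SD within groups was 1.49 times the counting SD in the ALDH high samples, against 2.37 times in the ALDH low samples.

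Of the exon bases of TAGLN, 11.4% are shared with PCSK7, a proprotein convertase gene on the opposite strand. The labels do not settle whether the libraries kept strand, and if they did not, reads of that stretch cannot be told apart. PCSK7 had 1407, 1740 and 1423 normalized reads in the ALDH high samples, against 1807, 1452 and 1201 in the ALDH low samples. Its groups overlapped, with a log2 difference of 0.05 (95% interval −0.35 to 0.45).

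Markers of other cell types were set beside TAGLN. Of 12 smooth muscle markers 5 were in the table, with a summed level of 1682 to 1742 normalized reads in ALDH high and 1222 to 1903 in ALDH low. The differences of 4 lay above 0 and that of 1 below, with a median of 0.31 against 0.02 over all genes, and none passed the threshold of limma. Most of the sum was SMTN, at 1583 ± 30.5 in the ALDH high samples, against 1512 ± 340 in the ALDH low samples. The defining contractile genes were low, with MYH11 at 34.6, 19.2 and 27.4 in the ALDH high samples, against 19.9, 24.4 and 17.1 in the ALDH low samples, and ACTA2 at 36.2 ± 5.17 in the ALDH high samples, against 38.1 ± 15.2 in the ALDH low samples (SD, n = 3 each). SYNM, an intermediate filament gene, had a log2 difference of 0.31 (95% interval −0.47 to 1.09) and LDB3, a Z-disc gene, one of 0.61 (−0.38 to 1.59). DES, CNN1, LMOD1 and MYOCD were not found in the table.

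Of 13 fibroblast markers 3 were in the table, and in all 3 the ALDH high samples lay above the ALDH low ones, where 3.68% of all genes did, though none passed limma's threshold. COL1A2, COL3A1, DCN, LUM, PDGFRA, THY1, FAP, POSTN, VIM and FBLN1 were not found in the table. COL1A1, a collagen gene that some carcinoma cells also express, had 1776, 1469 and 1692 in the ALDH high samples, against 821, 1451 and 1415 in the ALDH low samples. Its nearest samples, ALDH high 2 and ALDH low 2, were close together. FN1, which encodes fibronectin, averaged 118 ± 9.49 in the ALDH high samples, against 85.6 ± 18.5 in the ALDH low samples. Its nearest samples were ALDH high 2 at 109 and ALDH low 2 at 104. PDGFRB, a growth factor receptor gene, averaged 75.0 ± 8.30 and 63.8 ± 4.30 in the same order (SD, n = 3 each). Its nearest samples, ALDH high 1 at 70.2 and ALDH low 2 at 68.3, were also close together. The summed fibroblast level was 1649 to 1962 in ALDH high and 966 to 1623 in ALDH low. Their part in the TAGLN values was not tested. The 5 endothelial markers of 11 found in the table were split, 2 above 0 and 3 below. The most abundant were EGFL7, VWF and ENG, with log2 differences of −0.10, −0.21 and 0.62 and intervals that include 0. CD68 was the leukocyte marker found of 14, at 23.5 ± 7.90 in the ALDH high samples, against 23.7 ± 3.97 in the ALDH low samples.

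TAGLN2 (chromosome 1, 159918107 to 159925732, minus strand) showed no such order. It had 11359, 8626 and 11747 normalized reads in the ALDH high samples, against 8576, 11226 and 12363 in the ALDH low samples. The lowest values were those of ALDH low 1 and ALDH high 2, and the groups overlapped fully. The means were 10578 ± 1701 in the ALDH high samples, against 10721 ± 1943 in the ALDH low samples (SD, n = 3 each), with a log2 difference of −0.02 (95% interval −0.44 to 0.41; limma adjusted p = 0.994). Its sign turned to 0.17 without both samples numbered 2. The SD within groups was 16.2 times the counting SD in the ALDH high samples, against 18.9 times in the ALDH low samples, so counting error was a small part of it.

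The coding sequences of TAGLN and TAGLN2 (transcripts of 603 and 597 coding bases) were identical at 70.9% of aligned bases, and the longest identical run was 19 bases. The most similar 60-base stretch within an exon is shown because the counts rest on reads placed at a single gene, and it shows what separates these paralogs. Both stretches lie in exon 3 of the transcript, at chr11:117203380-117203439 on the plus strand for TAGLN and chr1:159919706-159919765 on the minus strand for TAGLN2 (GRCh38, GENCODE). Capitals mark the 9 bases that differ.
TAGLN: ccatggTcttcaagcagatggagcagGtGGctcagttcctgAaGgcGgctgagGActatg
TAGLN2: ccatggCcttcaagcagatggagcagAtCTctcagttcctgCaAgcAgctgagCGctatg
No stretch of 50 bases in any TAGLN transcript occurred in a TAGLN2 transcript. Of all 50-base stretches of TAGLN, 9.63% occurred in another annotated gene, PCSK7 alone, and of those of TAGLN2, 5.84%, in its pseudogene TAGLN2P1.

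Per kilobase of annotated exon, TAGLN2 exceeded TAGLN by 107, 86.6 and 94.7 times in the ALDH high samples 1, 2 and 3, against 146, 137 and 230 times in the ALDH low samples 1, 2 and 3. TAGLN thus made up 0.922% to 1.14% of the transgelin level per length in ALDH high and 0.433% to 0.724% in ALDH low. This ratio contains the TAGLN values that chose the gene, and is a description. It and the share also depend on the length used, that of all annotated exons together, 3917 bases for TAGLN and 2487 for TAGLN2.

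CNN2, a calponin expressed outside smooth muscle (chromosome 19, 1026581 to 1039068, plus strand), had 1129, 942 and 1063 normalized reads in the ALDH high samples, against 776, 1096 and 1141 in the ALDH low samples. As in TAGLN2, ALDH low 1 and ALDH high 2 were the lowest samples. The means were 1045 ± 94.6 and 1004 ± 199 in the same group order (SD, n = 3 each), with a log2 difference at 0.07 (95% interval −0.33 to 0.48; limma adjusted p = 0.988). An unnamed gene on the opposite strand shares 9.27% of its exon bases, and 8.51% of its 50-base stretches occurred in another annotated gene, mostly that one.

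The tropomyosins found in the table were TPM1, TPM3 and TPM4, and none of them passed the test. TPM1 (chromosome 15, 63042632 to 63071915, plus strand), the tropomyosin of muscle and many other cells, had 2091, 2260 and 2175 normalized reads in the ALDH high samples, against 2007, 2125 and 2485 in the ALDH low samples. ALDH low 1 and ALDH low 3 were its lowest and highest samples. Its log2 difference was −0.01 (95% interval −0.33 to 0.30; limma adjusted p = 0.993). Genes on the opposite strand, among them TPM1-AS, share 21.4% of its exon bases, and neither was found in the table. Of its 50-base stretches 19.96% occurred in another annotated gene.

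TPM3 (chromosome 1, 154155304 to 154194648, minus strand) was the most abundant tropomyosin. It had 9864, 10097 and 9895 normalized reads in the ALDH high samples, against 8718, 10148 and 10594 in the ALDH low samples. The ALDH high samples lay close together, inside the range set by ALDH low 1 and ALDH low 3. The SD was 127 in ALDH high, 1.25 times the counting SD, and 980 in ALDH low, 10.0 times. The log2 difference was 0.02 (95% interval −0.30 to 0.35; limma adjusted p = 0.989). GENCODE lists 8 pseudogenes named after TPM3, and 3.27% of its 50-base stretches occurred in another annotated gene.

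TPM4 (chromosome 19, 16067021 to 16103005, plus strand) had 2880, 3019 and 3065 normalized reads in the ALDH high samples, against 2945, 2930 and 2974 in the ALDH low samples. Its highest sample was 1.06 times its lowest. The SD over all 6 samples was 65.8 normalized reads, 1.21 times the counting SD, so the samples differed little beyond counting error. The log2 difference was 0.02 (95% interval −0.27 to 0.31; limma adjusted p = 0.992). A gene on the opposite strand shares 9.60% of its exon bases, and 14.5% of its 50-base stretches occurred in another annotated gene.

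The tropomyosin coding sequences were more alike than the transgelins. TPM1 and TPM3 were identical at 80.0% of aligned coding bases, TPM3 and TPM4 at 76.8%, and TPM1 and TPM4 at 75.9%. Their longest identical run was 29 bases, between TPM3 and TPM4.

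The tropomyosin makeup was steady. Of the summed level per kilobase of TPM1, TPM3 and TPM4, TPM3 made up 69.7% ± 0.55 in the ALDH high samples, against 69.5% ± 1.58 in the ALDH low samples (SD, n = 3 each). TPM4 made up 20.3% ± 0.45 in the ALDH high samples, against 20.4% ± 1.62 in the ALDH low samples, and TPM1 9.93% ± 0.22 and 10.2% ± 0.55 in the same order. The TPM3 share was lowest in ALDH low 1, at 67.6%, where the TPM4 share was highest, at 22.2%. Exon lengths were those of all annotated exons together, and these genes have many isoforms, so shares depend on that length.

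CALD1, the caldesmon gene (chromosome 7, 134744252 to 134970728, plus strand), had 4740, 6217 and 4839 normalized reads in the ALDH high samples, against 6944, 4887 and 4595 in the ALDH low samples. ALDH low 1 and ALDH high 2 were its highest samples, the reverse of TAGLN2 and CNN2. Its means were 5265 ± 826 in the ALDH high samples, against 5476 ± 1280 in the ALDH low samples (SD, n = 3 each). The log2 difference was −0.04 (95% interval −0.47 to 0.38; limma adjusted p = 0.988).

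VCL, which encodes vinculin (chromosome 10, 73995193 to 74121363, plus strand), had 3212, 4758 and 3231 normalized reads in the ALDH high samples, against 3459, 3445 and 2479 in the ALDH low samples. ALDH high 2 stood above the other samples and ALDH low 3 below them. The means were 3734 ± 887 and 3128 ± 562 in the same group order (SD, n = 3 each), with a log2 difference at 0.25 (95% interval −0.20 to 0.69; limma adjusted p = 0.984). Without ALDH high 2 the difference was 0.06. On the opposite strand AP3M1, an adaptor complex subunit gene, shares 11.1% of the exon bases of VCL, and it had 1363, 1562 and 1357 in the ALDH high samples, against 1440, 1503 and 1074 in the ALDH low samples.

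**Figure D2:**
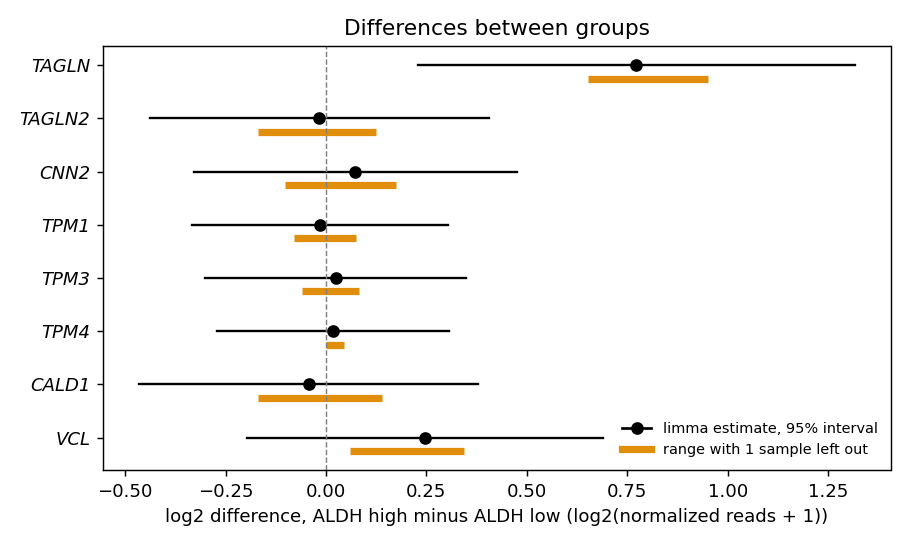
Log2 difference of each gene, ALDH high minus ALDH low, on the log2(normalized reads + 1) scale (horizontal axis). Black points and lines are the limma estimate and its 95% interval, and orange bars the range of the estimate when 1 of the 6 samples is left out. The intervals of 7 genes include 0, and that of TAGLN, which was chosen for this difference, runs from 0.23 to 1.32.

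Levels per kilobase of exon covered a wide range. TAGLN2 was highest, at 4253 ± 684 normalized reads per kb in the ALDH high samples, against 4311 ± 781 in the ALDH low samples (SD, n = 3 each). TPM3 followed at 1186 ± 15.1 and 1171 ± 117, and CALD1 at 535 ± 83.9 and 556 ± 130 in the same group order. TPM4 and VCL came next at 346 ± 11.1 and 374 ± 88.8 in the ALDH high samples, against 342 ± 2.55 and 313 ± 56.2 in the ALDH low samples, then CNN2 at 287 ± 26.0 in the ALDH high samples, against 276 ± 54.6 in the ALDH low samples. TPM1 had 169 ± 6.54 and 171 ± 19.3, and TAGLN 44.2 ± 5.12 and 26.1 ± 6.01. Over the 6 samples the ranges of neighbours in this order overlapped for TPM4 with VCL and for VCL with CNN2, and not for the other neighbours. The order depends on the length used, that of all annotated exons together. TPM1, with 12876 exon bases, came after CNN2, with 3645, though its mean of 2191 normalized reads exceeded the 1025 of CNN2.

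**Figure D3:**
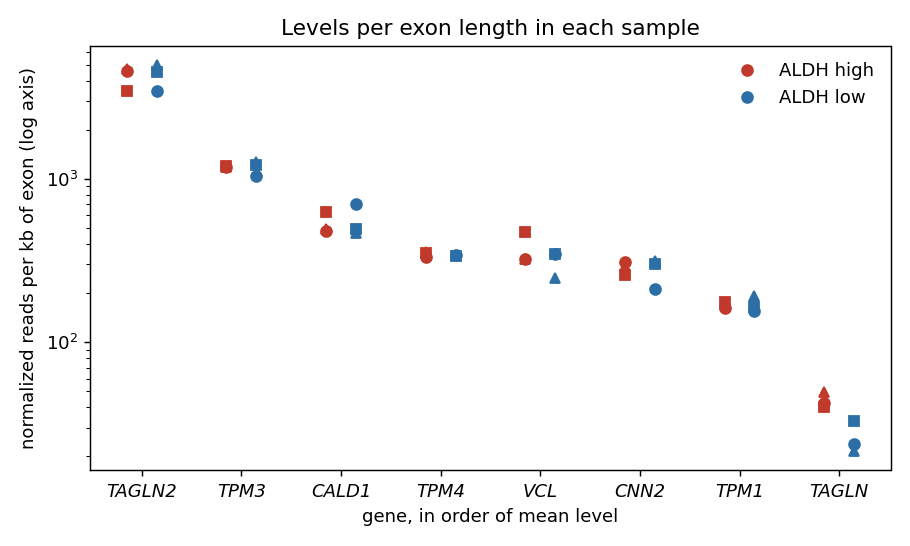
Normalized reads per kilobase of annotated exon (log axis) for the 8 genes in order of mean level, ALDH high left and ALDH low right of each gene, with circles, squares and triangles for samples 1, 2 and 3. TAGLN2 lies at 3448 per kb or more in every sample and TAGLN between 21.6 and 49.9.

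The genes also differed in how far samples spread around the mean. On the log2 scale, the SD over all 6 samples was 0.03 for TPM4, 0.10 for TPM3, 0.11 for TPM1, 0.21 for CNN2, 0.23 for TAGLN2, 0.25 for CALD1, 0.30 for VCL and 0.48 for TAGLN. The median over the 11506 genes averaging 100 or more was 0.23. TPM4 was the 5th least variable of these genes, since 4 had a smaller SD. TPM3 had a smaller SD than all but 5.27% and TPM1 than all but 7.90% of them. The SD of TAGLN over 6 samples contains the group difference for which it was chosen, so its rank is not given. These ranks were looked up after the values were seen and take no account of level, on which the SD depends.

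**Figure D4:**
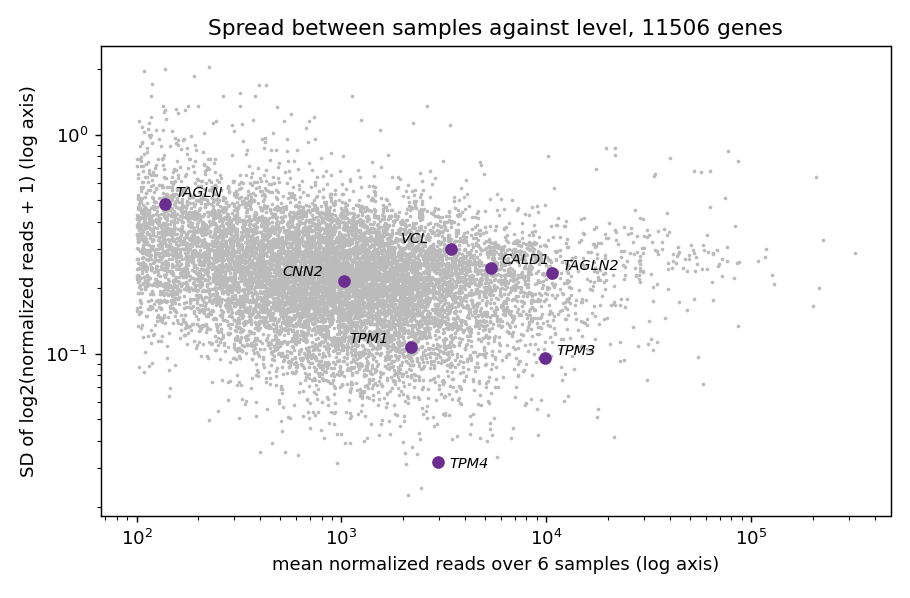
SD over the 6 samples of log2(normalized reads + 1) against mean normalized reads, both on log axes, for 11506 genes (grey) and the 8 described here (purple). TPM4 lies at the lower edge, at an SD of 0.03, and TAGLN at 0.48, which includes the group difference it was chosen for.

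Within ALDH low, samples 1 and 3 often stood at opposite ends. CNN2, TPM1, TPM3 and TAGLN2 were highest in ALDH low 3 and lowest in ALDH low 1 of all 6 samples, and CALD1 the other way round. Either pattern was thus met by 5 of the 8 genes, and by 14.9% of all genes. Every ALDH high sample of these genes then lies between those of ALDH low. The ratio of ALDH low 1 to ALDH low 3 was 0.694 for TAGLN2, 0.680 for CNN2, 0.808 for TPM1, 0.823 for TPM3 and 1.51 for CALD1. This pattern was noticed after the values were seen.

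The cytoplasmic actins followed the TAGLN2 pattern in ALDH low. ACTB had 89025, 82148 and 94228 normalized reads in the ALDH high samples, against 48327, 86203 and 100491 in the ALDH low samples. ACTG1 had 43445, 42434 and 45997 in the ALDH high samples, against 30618, 42086 and 52601 in the ALDH low samples. In both, ALDH low 1 stood below all other samples and ALDH low 3 above them, and neither passed limma's threshold, with log2 differences of 0.24 (95% interval −0.37 to 0.85) and 0.11 (−0.38 to 0.59).

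**Figure D5:**
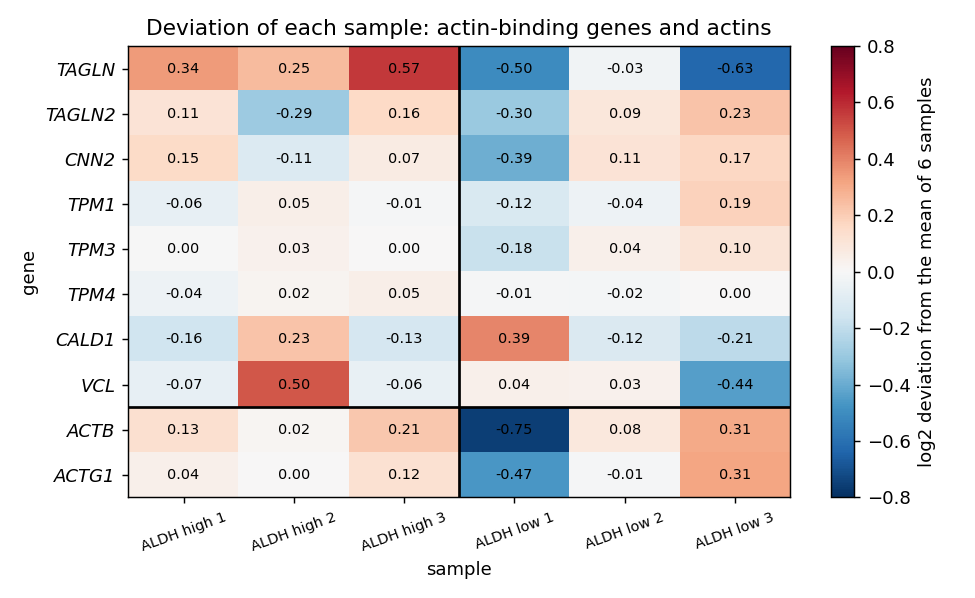
Deviation of each sample from the mean of 6, on the log2(normalized reads + 1) scale, for the 8 genes and the cytoplasmic actins ACTB and ACTG1 (rows). ALDH high samples are the left 3 columns and ALDH low the right 3, with the value printed in each cell. ALDH low 1 holds the lowest value of ACTB, at −0.75, and the highest of CALD1, at 0.39.

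SRF binds a short element, the CArG box, which was looked for in the 250 bases before the RefSeq gene starts available here (GRCh38.p14). The element is CC, then 6 bases that are each A or T, then GG, and its reverse complement has the same form. TAGLN and MYL9 had no entry in the promoter table. The other 8 symbols, TPM2 included, had 17 start windows, of which 1 of CNN2 and 1 of the 3 of TPM4 held a CArG box. Of all 35116 windows, 1.16% did. The only TPM1 window (chr15:63048239-63048488) and the TPM3 windows lay inside these genes, downstream of the first coding exon of the transcripts compared above. The stretches before those exons were not searched, so nothing is said of them. The CNN2 and TPM4 windows with the element are shown, with that element in capitals. The CNN2 stretch lies at chr19:1026358-1026607 and the TPM4 stretch at chr19:16067288-16067537, both on the plus strand, and the boxes begin 89 and 173 bases before the start.
CNN2: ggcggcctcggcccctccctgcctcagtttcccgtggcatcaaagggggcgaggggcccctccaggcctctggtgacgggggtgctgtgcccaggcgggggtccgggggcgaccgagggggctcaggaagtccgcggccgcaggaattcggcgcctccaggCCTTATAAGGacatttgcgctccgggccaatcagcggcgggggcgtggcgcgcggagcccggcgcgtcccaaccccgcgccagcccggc
TPM4: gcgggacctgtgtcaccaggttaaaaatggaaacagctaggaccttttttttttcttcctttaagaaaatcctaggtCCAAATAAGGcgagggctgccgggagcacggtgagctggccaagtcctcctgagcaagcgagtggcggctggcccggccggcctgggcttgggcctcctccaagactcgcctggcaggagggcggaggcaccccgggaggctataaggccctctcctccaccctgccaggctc
CNN2 and TPM4 had log2 differences of 0.07 and 0.02 between the groups, as given above.

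SRF itself had 1610, 1720 and 1521 normalized reads in the ALDH high samples, against 1756, 1559 and 1836 in the ALDH low samples, with overlapping groups and a log2 difference of −0.08 (95% interval −0.40 to 0.23). MRTFA averaged 754 ± 38.5 in the ALDH high samples, against 594 ± 132 in the ALDH low samples (SD, n = 3 each), a difference of 0.36 (−0.05 to 0.78). MRTFB, at 1009 ± 335 and 824 ± 295 in the same order, was highest in ALDH high 2 (1389) and lowest in ALDH low 3 (514), the samples at which VCL had its own extremes.

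Other genes of the actin cytoskeleton were counted from 6 lists chosen by function, 77 genes in all outside the 8. None passed limma's threshold, 51 differences lay above 0 and 26 below, and the median was 0.08 against 0.02 over all genes. In 3 of them, 3.9%, the ALDH high samples lay above the ALDH low ones with no overlap, and in 0 below, where 3.68% and 3.32% of all genes did. These were EGR1, an immediate early gene, MYH10, a nonmuscle myosin heavy chain gene, and GSN, the gelsolin gene.

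Of 15 SRF and MRTF targets in the table, 11 lay above 0, with a median of 0.08. Of 15 genes of nonmuscle myosin II and its regulators, 10 lay above 0, with a median of 0.14. MYH9, the most abundant myosin heavy chain of the list, averaged 18687 ± 3258 in the ALDH high samples, against 14387 ± 2169 in the ALDH low samples (SD, n = 3 each), with a log2 difference at 0.37 (95% interval −0.04 to 0.78). MYL6, a myosin light chain, averaged 13630 ± 1440 and 17056 ± 5274 in the same order, and RHOA, a small GTPase that drives contraction, 11021 ± 588 and 11034 ± 3234.

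Of 21 focal adhesion and crosslinking genes, 17 lay above 0, with a median of 0.13. Among them ACTN4, an actinin, averaged 14034 ± 780 in the ALDH high samples, against 12144 ± 1446 in the ALDH low samples, FLNA, a filamin, 10844 ± 3339 and 8792 ± 838, and ITGB1, an integrin subunit, 8238 ± 1407 and 9062 ± 2464 in the same order (SD, n = 3 each). Of 27 genes of filament assembly and severing, 14 lay above 0 and 13 below, with a median of 0.01. PFN1, the profilin gene, averaged 35632 ± 2266 in the ALDH high samples, against 37603 ± 12410 in the ALDH low samples, and CFL1, the cofilin gene, 23744 ± 1680 and 24379 ± 7697. In both, ALDH low 1 was the lowest and ALDH low 3 the highest sample, as in ACTB. Over the 77 genes, 18 had their extremes in these 2 samples, either way round, where 14.9% of all genes did. WDR1, a cofilin cofactor, averaged 8015 ± 317 and 7779 ± 328.

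The 5 genes whose log2 values followed TAGLN most closely over the 6 samples were taken from 11496 named genes averaging 100 or more, by Pearson's r alone. CACNB2, a calcium channel subunit gene, had r = 0.980, with 180, 151 and 183 normalized reads in the ALDH high samples, against 98.8, 134 and 101 in the ALDH low samples. CACNB3, another subunit of such channels, had r = 0.969, ZSWIM4 0.977, GTPBP1 0.969 and MCF2L 0.968. With so many genes and 6 samples that share 1 cell line, these values describe likeness only. TAGLN was chosen for its group difference, so the group difference of genes that follow it comes from that choice.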

How the data were processed

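Poly(A) RNA of 6 LNCaP samples was counted per gene from uniquely placed exonic reads with featureCounts, per the labels' protocols. Trimmomatic 0.36, STAR 2.5.2b, Subread 1.5.2, DESeq2 and the build GRCh38 are named in the submitters' processing notes. The annotation used was not given in the sources used here. Values deposited per gene are a normalized signal, meaning reads over a size factor of the sample. Beside them stand the authors' log2 change (ALDH low over ALDH high, read from the sample columns), p-value and adjusted p-value. The 46 spike-in rows of 16046 were left out. Whole reads were recovered, with at least 99.99% of values within 0.02 of a whole read.

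Names and coordinates came from GENCODE 29, which matched 15939 of 16000 identifiers. Lengths are those of all exons of a gene together. All genes were tested on log2(value + 1) in limma 3.58.1 (R 4.3.3), using its trend option, and adjusted by Benjamini-Hochberg. This scale understates changes of low genes. EdgeR 4.0.16 and DESeq2 1.42.0 on whole reads, other pseudocounts, scalings and filters, a replicate block and left-out samples were alternatives. The limma script was tested on simulated reads, drawn independently for each sample. These lack the likeness across groups seen here, so that test checks the code only. The p-values reflect just the variation among these 6 samples, which may be technical. Coding sequences were aligned with Biopython 1.88.

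The genes and lists were chosen with earlier results of these data known. Named genes were the 8 found, the 3 most abundant of each list, any called list gene and the 5 genes most like TAGLN. PCSK7, AP3M1, EGR1, MYH10, GSN, MYH11, LDB3, TMOD1, TMOD2, TMOD3 and others outside this rule were named after their values were seen. Same-numbered samples did not deviate together, so the numbers were not taken as pairs. An aligned stretch of the tropomyosin genes is not reported here.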

Additional observations from a re-analysis of the deposited data

Results flagged for a closer look

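ERCC spike-ins are synthetic RNAs added as controls, and no comparison here uses them. They took up 0.487% of all reads, more than a count of 0 would allow. By sample this was 0.630%, 0.399% and 0.403% in the ALDH high samples, against 0.491%, 0.556% and 0.448% in the ALDH low samples. Groups of 3 samples were not tested for outlying samples.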

How the results depend on the processing

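The count of called genes was 0 of 16000 under each setting tried except 1: without both samples numbered 2, limma called 107 genes (0.669%), none of them among the 8 genes or the listed genes, where the count stayed 0 throughout. These 2 samples were left out for their likeness to the other group, which itself widens the gap. With 1 sample left out the counts ran from 0 to 0. Under the replicate block the count was also 0. The correlations of same-numbered samples' deviations were −0.46, −0.43 and 0.14 for numbers 1, 2 and 3, and 1 of 6 samples correlated best with its own number. Signs turned in genes near 0. With scaling to the total, TAGLN2, TPM1 and CALD1 had log2 differences of 0.029, 0.030 and 0.0015, while the median of all genes moved to 0.06. Without both samples numbered 2, TAGLN2 was at 0.17. With 1 sample left out, the difference ran from −0.17 to 0.12 in TAGLN2, −0.10 to 0.18 in CNN2, −0.080 to 0.074 in TPM1, −0.059 to 0.081 in TPM3, −0.00035 to 0.044 in TPM4, −0.17 to 0.14 in CALD1, 0.06 to 0.34 in VCL and 0.65 to 0.95 in TAGLN. The cause was not tested. Depth limits TAGLN most, at 79 to 172 reads per sample.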

Other observations

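Among the listed genes of filament assembly, the tropomodulins, which cap the slow-growing end of filaments coated with tropomyosin, spread widely. These were named after their values were seen. TMOD2 had 269, 113 and 275 normalized reads in the ALDH high samples 1, 2 and 3, against 98.8, 238 and 66.4 in the ALDH low samples 1, 2 and 3. TMOD1 had 82.7, 52.0 and 115 in the ALDH high samples, against 23.4, 102 and 43.9 in the ALDH low samples. In both, ALDH high 1, ALDH high 3 and ALDH low 2 were the 3 highest samples, so the groups overlapped, and neither passed limma's threshold. These 3 samples were also the most alike across genes, with r of 0.994 to 0.996. The share of all genes with this order was not counted, so it is not read as a trait of tropomodulins. TMOD3 varied less, with 1365, 1501 and 1440 in the ALDH high samples, against 1306, 1418 and 1113 in the ALDH low samples.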
